A study of Mus musculus with 6 samples.

Results

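The genes described here encode the machinery that copies DNA: the proteins that license replication origins and those that travel with the replication fork. They were taken from a list of 52 gene symbols, and 51 of the 52 had a row in the authors' deposited comparison table of 15138 genes. The remaining gene, Fen1, was present in the deposited count table of 46078 genes, so values of all 52 could be read there, and all 52 passed the filter on low counts.

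The libraries came from the fraction of epithelial cells washed off the colon of 2-month-old mice kept under naive conditions, with 3 libraries from wild type mice and 3 from Lingo3-/- mice, with a knockout of the gene of a transmembrane leucine-rich repeat protein. RNA was total RNA depleted of ribosomal RNA and sequenced with a strand-marking kit. The labels name no further allele, strain, sex or treatment, and they do not state whether the 3 libraries of a genotype came from separate animals, so p-values measure only the spread between these libraries, which may be technical. For wild type replicate 1 the cell type label mentions EDTA with DTT, for the other 5 libraries EDTA alone, while the protocol text common to all 6 names both.

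In each cell cycle, the origin recognition complex marks origins and, together with Cdc6 and Cdt1, loads the ring-shaped MCM helicase around DNA. This loading, called licensing, takes place in G1. In S phase the kinase Cdc7-Dbf4 and the cyclin-dependent kinases activate the helicase, which is joined by Cdc45 and the GINS complex to form the CMG helicase. Primase, the replicative polymerases, the sliding clamp PCNA and its loader then copy the unwound strands, while chromatin is rebuilt behind the fork. In the colon, dividing cells sit in the lower crypt, and many of the genes of this machinery are known targets of E2F transcription factors.

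Because E2F sites are the best known shared feature of these genes, the RefSeq promoters of the members were searched. The promoters were those of GRCm38.p6, from 250 bases before to 50 bases after the start, and they covered 43 of the 52 members. The E2F-type motif was spelled TTTCCCGC, TTTCGCGC, TTTGCCGC or TTTGGCGC on either strand, and the CCAAT box CCAAT on either strand. The promoters of Mcm6 and Mcm5, whose differences between genotypes had the smallest adjusted p of the members with such a motif, are shown over the 250 bases before the start. They are followed by stretches of 30 bases over the motifs of Hells, which lies before the RefSeq start, and of Mcm3, which lie after it. In the GENCODE annotation Hells begins at base 38930915, so its stretch lies within the gene as annotated there. Capitals mark the matches to either motif. The Mcm6 sequence is chr1:128359706-128359955 on the minus strand and that of Mcm5 chr8:75109259-75109508 on the plus strand. The Hells stretch is chr19:38930917-38930946 on the plus strand and that of Mcm3 chr1:20820265-20820294 on the minus strand.
Mcm6: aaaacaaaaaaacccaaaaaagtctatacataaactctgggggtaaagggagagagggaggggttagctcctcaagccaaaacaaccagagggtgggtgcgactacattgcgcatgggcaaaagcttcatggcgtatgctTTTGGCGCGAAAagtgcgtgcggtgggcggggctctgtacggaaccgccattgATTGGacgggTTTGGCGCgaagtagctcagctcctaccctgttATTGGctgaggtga
Mcm5: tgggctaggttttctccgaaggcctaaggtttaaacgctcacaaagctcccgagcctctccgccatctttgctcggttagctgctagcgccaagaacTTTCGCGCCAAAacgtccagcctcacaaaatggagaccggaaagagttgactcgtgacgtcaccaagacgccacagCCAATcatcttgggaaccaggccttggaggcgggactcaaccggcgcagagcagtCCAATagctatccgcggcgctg
Hells: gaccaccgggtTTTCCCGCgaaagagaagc
Mcm3: gGCGGGAAAacttgggaagtTTTGGCGCca

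Mcm6 held 3 E2F-type matches, an overlapping pair that begins 110 and 106 bases before the start and another that begins 47 bases before it, with CCAAT boxes that begin 57 and 14 bases before it. In Mcm5 an overlapping pair of E2F-type matches began 153 and 149 bases before the start, with 2 CCAAT boxes nearer to it. Across the list, 20 of the 43 members with a promoter (46.5%) held an E2F-type match, against 704 of 27025 genes of the RefSeq table (2.60%). Among the 10776 protein-coding genes tested with a promoter, which are more like the members, the share was 4.42%. By single start sites, the share was 37.7% of 53 member starts against 2.26% of 32851 starts. For 39 of the 53 member starts, the first 20 transcribed bases lay in the first 60 bases of a GENCODE transcript. Starts are thus those of RefSeq, and some matches, as in Hells, lie within the gene as GENCODE annotates it. CCAAT boxes were found in 58.1% of the members and in 41.1% of all genes, and both motifs together in 27.9% and 1.12%. A match is a run of letters in this window and was not tested as a bound site. Of the 20 members with an E2F-type match 7 were higher in knockout by the test described below, with a median log2 fold change of 0.34. Of the 23 members whose promoter held none 3 were higher, with a median of 0.12, and of the 9 without a RefSeq promoter 2 were higher, with a median of 0.37. Over the 10776 protein-coding genes tested with a promoter, 14.5% of the 476 genes with the motif and 11.3% of those without it were higher in knockout. Their median log2 fold changes were 0.07 and 0.01, and the difference between genes with and without the motif was not tested.

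Library depth, as the total count over genes, was 11868000 to 28029583, and each wild type library was deeper than each knockout library. Lingo3 itself had 1 to 3 counts in wild type and 0 to 2 in knockout, too few to check the genotype labels. The 10 epithelial markers (such as Epcam, Krt8 and Vil1) summed to 5285 to 6292 CPM (counts relative to library size, scaled by TMM factors) in wild type and 6177 to 7595 in knockout, with 2 of 10 higher. T cell markers were lower in knockout in 10 of 12 cases, and their sum was 153 to 173 CPM in wild type and 51.5 to 93.4 CPM in knockout. The sums of 8 B cell markers were 23.5 to 60.8 and 14.5 to 18.1 CPM (3 lower), those of 8 myeloid markers 29.5 to 38.4 and 35.2 to 74.2 CPM (1 higher), and those of stromal and endothelial markers 344 to 997 and 230 to 470 CPM (2 of 9 tested lower). These counts are by the test described below, by which 9.43% of all genes were higher and 5.97% lower. The myeloid count lay near that share. No marker in these lists was at 0 in a library. Transcripts of cells other than epithelium were thus present, those of T cells took a smaller share in knockout, and the part of these shifts in the differences below was not tested. In bulk RNA, fewer cells of a type and less RNA per cell cannot be told apart.

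Between genotypes, 12 of the 52 genes were higher in knockout and 0 were lower, with edgeR's quasi-likelihood test and Benjamini-Hochberg adjustment over the 16856 genes tested at a threshold of 0.05. Of all genes tested, 9.43% were higher and 5.97% lower. At an unadjusted p under 0.05 the members counted 20 higher and 0 lower, against 16.7% of all genes higher and 14.5% lower. At the adjusted threshold, DESeq2 called 9 members higher and limma-voom 11, beside 8.41% and 9.12% of all genes, and each called 0 lower. The 12 were Orc1, all 6 subunits of the MCM core (Mcm2 to Mcm7), the polymerase delta subunit Pold2, the fork protection factor Tipin, and the chromatin factors Chaf1b, Hells and Uhrf1. Their log2 fold changes, knockout minus wild type, ran from 0.34 to 0.80. The median over the 52 members was 0.26 and that over all genes tested -0.03. The fold change was above 0 for 44 members and below it for 8. The libraries of the genotypes did not overlap for 22 members, all higher in knockout, against 19.7% of all genes higher and 16.0% lower without overlap.

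The summed level of the 52 genes was 716, 754 and 725 CPM in wild type replicates 1, 2 and 3 and 800, 939 and 881 CPM in knockout replicates 1, 2 and 3. Each knockout library was above each wild type library, and knockout replicate 1 was the nearest to the wild type range. By gene, 32 of the 52 members had their highest level in knockout replicate 2, 14 in knockout replicate 3 and 2 in knockout replicate 1. Wild type replicate 2 held the highest level for the other 4. When wild type replicates 1, 2 and 3 were left out in turn, the count of members higher in knockout was 9, 9 and 5. When knockout replicates 1, 2 and 3 were left out, it was 15, 5 and 5. The share of all genes higher was 10.04%, 6.57% and 5.61% in the former fits and 9.12%, 5.05% and 3.98% in the latter, and it was below the 9.43% of the full fit in all but the first of these 6. Mcm5, Mcm6, Pold2 and Hells were called in each of these 6 fits.

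The scaling of the libraries set how many members passed. With library totals alone, and no composition factors, 34 of the 52 were higher and all 52 fold changes were above 0, while the median of all genes moved up by 0.28 and 32.1% of all genes were higher. Of all genes called, 61.2% were higher in the reported fit and 92.8% with library totals. When the libraries were instead scaled to their summed counts of the 10 epithelial markers, a choice made after the data were seen, only Mcm6 was higher (log2 fold change 0.60, edgeR adjusted p = 0.00451). That is 1.96% of the members tested, beside 1.94% of all genes higher in the same fit. In that fit 30 members lay above 0 and 21 below it, and of all genes called 14.7% were higher. The median of all genes then moved down by 0.20. The median of the members was 0.23 to 0.35 above that of all genes in every setting tried. A change of scaling moves all genes by nearly the same amount, so between scalings this gap was bound to stay nearly constant. The gap therefore does not test the choice of scaling.

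**Figure D1:**
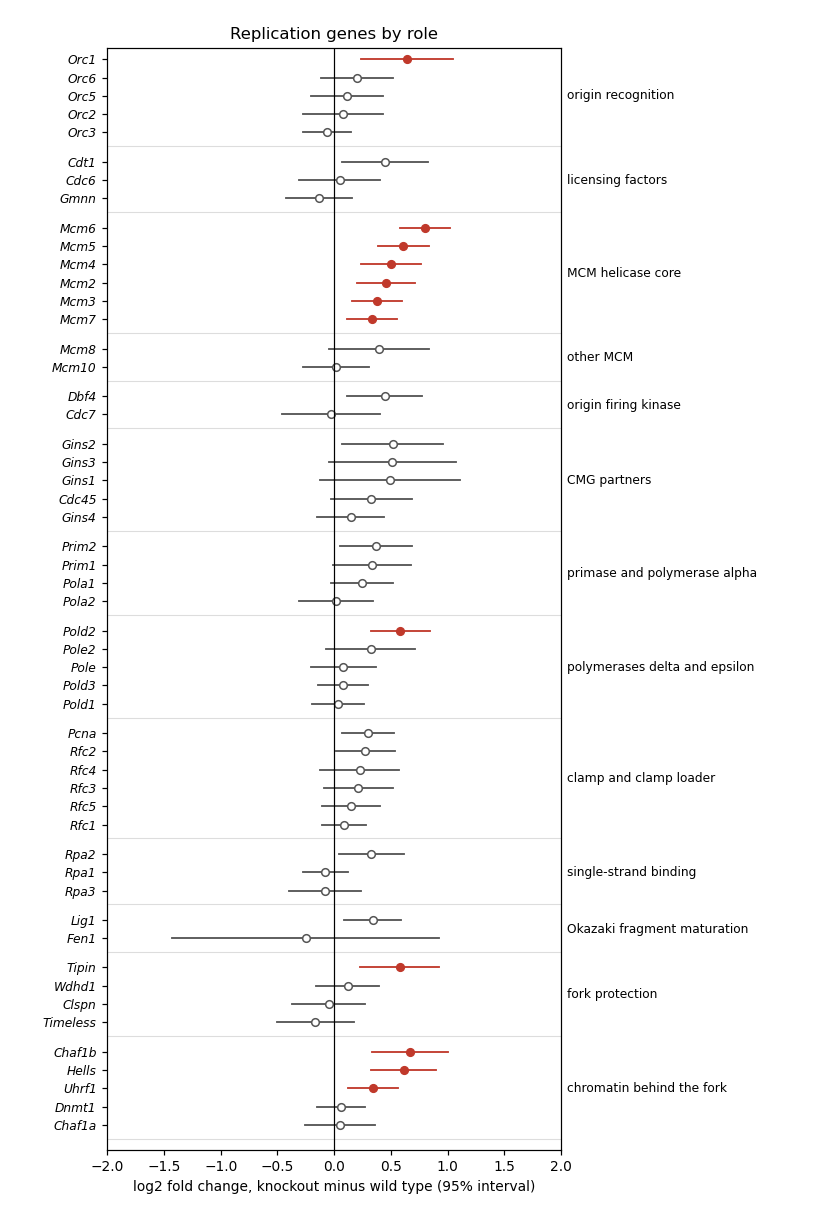
Log2 fold change (knockout minus wild type, x axis) of each of the 52 genes with its 95% interval, grouped by role (y axis); filled red points passed the test. All 6 subunits of the MCM core lie between 0.34 and 0.80, and 8 genes of other roles lie below 0.

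The origin recognition complex, which marks origins, had 1 of 5 listed subunits higher. Orc1, its cell cycle-regulated ATPase subunit, was at 4.34, 3.84 and 4.29 CPM in wild type replicates 1 to 3 and at 5.14, 7.20 and 7.19 CPM in knockout replicates 1 to 3. Knockout replicate 1 was the lowest of its group and still above the wild type libraries. The log2 fold change was 0.64 (SE 0.18, edgeR adjusted p = 0.0361). Omitting any one of replicates 2 and 3 of either genotype ended the call (adjusted p up to 0.125). Orc2, a core subunit, was at 7.43, 8.21 and 6.45 CPM in wild type and at 7.10, 9.11 and 7.11 CPM in knockout, so that the groups overlapped (log2 fold change 0.08, adjusted p = 0.769). The other subunits lay at -0.06 (Orc3), 0.11 (Orc5) and 0.20 (Orc6), and none of them passed. Of the exon bases of Orc2, 29.8% overlap Nif3l1 on the opposite strand, and of those of Orc1 10.8% overlap Gm12743. Since the strand setting of the counting is not given, reads of such overlapping genes may not have been told apart.

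None of the 3 licensing factors passed. Cdt1, which delivers the MCM ring to origins and is destroyed in S phase, was at 6.40, 7.83 and 7.23 CPM in wild type and at 8.59, 8.53 and 12.5 CPM in knockout. The groups did not overlap, but knockout replicate 3 stood above the other 2 (log2 fold change 0.45, 95% interval 0.07 to 0.82, adjusted p = 0.101). Cdc6, the ATPase that acts with Cdt1, was at 5.65, 5.99 and 5.28 CPM in wild type and at 5.09, 6.30 and 6.15 CPM in knockout, with full overlap (log2 fold change 0.05, 95% interval -0.31 to 0.40, adjusted p = 0.868). Gmnn encodes geminin, the inhibitor of Cdt1, and its log2 fold change was -0.14 (95% interval -0.43 to 0.16).

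In the reported fit the MCM core was the only role in which every subunit passed. Its summed level went from a wild type mean of 128 ± 7.01 to a knockout mean of 188 ± 14.9 CPM (mean ± SD, n = 3 per genotype). Mcm2 to Mcm7 form a ring with 1 copy of each subunit, which encircles and unwinds the parental duplex. Mcm6, on chromosome 1 from 128331590 to 128359664 of GRCm38, was at 36.0, 32.0 and 31.1 CPM in wild type and at 52.04, 61.7 and 58.8 CPM in knockout. The lowest knockout library lay well above the highest wild type library. Its log2 fold change of 0.80 (SE 0.10, 95% interval 0.58 to 1.02, edgeR adjusted p = 0.00132) was the largest of the 52 genes. Mcm5, which forms with Mcm2 the gate through which DNA enters the ring, was at 22.8, 18.7 and 19.9 CPM in wild type and at 30.2, 32.5 and 31.1 CPM in knockout (log2 fold change 0.61, SE 0.10, adjusted p = 0.00361). The knockout libraries of Mcm5 lay closer together than the wild type libraries.

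The other 4 subunits rose with smaller fold changes. Mcm4, which is in the catalytic part of the ring, was at 18.3, 16.2 and 14.9 CPM in wild type and at 20.6, 23.0 and 26.6 CPM in knockout (log2 fold change 0.50, SE 0.12, adjusted p = 0.0177). Mcm2, a substrate of Cdc7 that also binds histones, was at 16.1, 15.8 and 14.4 CPM in wild type and at 18.4, 23.8 and 21.3 CPM in knockout (0.46, SE 0.12, adjusted p = 0.0225). Mcm3, a partner of Mcm5 in the ring, was at 17.2, 15.4 and 15.98 CPM in wild type and at 20.2, 22.1 and 20.9 CPM in knockout (0.38, SE 0.10, adjusted p = 0.026). In each of these genes the groups were separate, and the gap between the nearest libraries was narrower than in Mcm6. Mcm7 was at 25.6, 27.1 and 26.5 CPM in wild type and at 29.6, 36.2 and 34.4 CPM in knockout (0.34, SE 0.10, adjusted p = 0.0423). Mcm7 shares 8.70% of its exon bases with genes on the opposite strand.

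The calls of these 4 subunits depended on single libraries. Mcm4 did not pass when replicate 3 of either genotype was left out (edgeR adjusted p up to 0.0804), and Mcm2 when replicate 3 of either genotype or knockout replicate 2 was left out (up to 0.0990). For Mcm3, omitting any one of replicates 2 and 3 of either genotype ended the call (up to 0.0980). Of the 6 fits that leave out a library, Mcm7 passed only in the one that omits knockout replicate 1 (up to 0.160 in the other 5). The number of core subunits that passed was 5, 4 and 2 without wild type replicates 1, 2 and 3 and 6, 3 and 2 without knockout replicates 1, 2 and 3. Of all genes, 10.04%, 6.57% and 5.61% were higher in the former fits and 9.12%, 5.05% and 3.98% in the latter. With all 6 libraries, 4 core subunits passed with DESeq2 and with upper-quartile factors, and 5 with limma-voom. Counts thinned to the smallest library and a term for the replicate number each gave 4, library totals 6 and epithelial marker scaling 1. The share of all genes higher was 8.41% with DESeq2, 6.7% with upper-quartile factors and 9.12% with limma-voom. It was 8.93% with thinned counts, 7.08% with the replicate term, 32.1% with library totals and 1.94% with epithelial marker scaling.

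**Figure D2:**
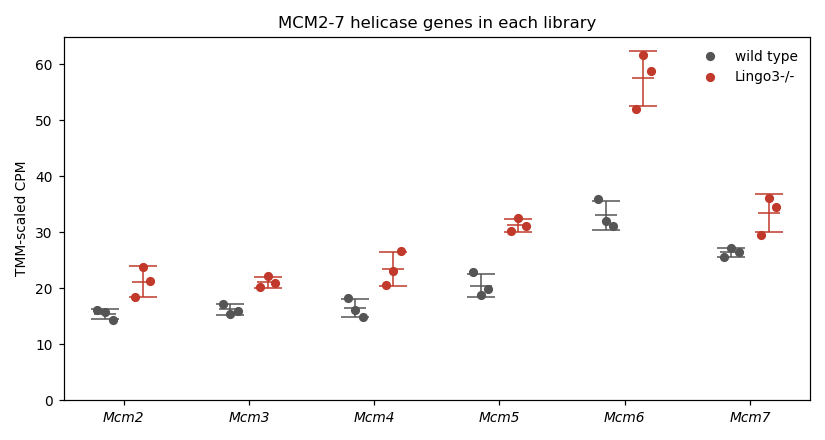
Level of Mcm2 to Mcm7 in each library (CPM scaled by TMM factors, y axis starting at 0), with points for single libraries and bars for the mean ± SD of the 3 libraries of each genotype. The knockout points of each gene lie above its wild type points, with the widest gap in Mcm6 (31.1 to 36.0 CPM in wild type, 52.04 to 61.7 CPM in knockout).

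Levels were compared between genes only per kilobase of the principal transcript. On this scale the wild type levels of the MCM core were 4.57 ± 0.267 for Mcm2, 4.58 ± 0.468 for Mcm4, 5.35 ± 0.304 for Mcm3, 6.06 ± 0.629 for Mcm5, 8.91 ± 0.264 for Mcm7 and 11.4 ± 0.889 for Mcm6, all in CPM per kb (SD, n = 3). Mcm2 and Mcm4 did not differ beyond their spread, whereas Mcm7 and Mcm6 stood above the other 4. In knockout the order of the ends was the same, with Mcm2 at 6.28 ± 0.813 and Mcm6 at 19.8 ± 1.70 CPM per kb (SD, n = 3). On this scale, subunits that the ring holds in equal number were thus not at equal levels in either genotype. Counts are per gene, while the length is that of the principal transcript only, so transcript numbers themselves were not measured. For Mcm2 that transcript has 3371 bases and all exons together 6956, and for Mcm4 both have 3589. Of the 52 genes, Pcna had the highest level per length in both genotypes, at 30.03 ± 1.48 CPM per kb in wild type and 37.0 ± 4.33 CPM per kb in knockout (SD, n = 3).

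The 2 listed MCM proteins outside the core did not pass. Mcm8, a helicase of homologous recombination, was at 2.94, 2.56 and 3.25 CPM in wild type and at 4.01, 3.39 and 4.15 CPM in knockout. The groups were separate at this low level (log2 fold change 0.40, 95% interval -0.04 to 0.84, edgeR adjusted p = 0.199). Mcm10, a scaffold that helps the CMG helicase start, was at 12.4, 16.9 and 13.7 CPM in wild type and at 14.1, 15.9 and 13.4 CPM in knockout, and the wild type libraries spanned the knockout ones (0.02, 95% interval -0.28 to 0.31, adjusted p = 0.949).

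The kinase that fires licensed origins has a catalytic subunit, Cdc7, and an activating subunit, Dbf4, and neither passed. Dbf4 was at 11.3, 13.8 and 11.5 CPM in wild type and at 13.3, 19.9 and 16.7 CPM in knockout. Only knockout replicate 1 fell within the wild type range (log2 fold change 0.45, edgeR adjusted p = 0.069), and without that library the fold change was 0.59 with an adjusted p of 0.0185. With any other library omitted Dbf4 did not pass (adjusted p up to 0.26). Cdc7 was at 5.04, 6.48 and 6.45 CPM in wild type and at 4.58, 7.31 and 5.75 CPM in knockout, with overlap in both directions (-0.03, 95% interval -0.46 to 0.40, adjusted p = 0.936).

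The 5 partners that turn the MCM ring into the CMG helicase all had fold changes above 0, and 0 of 5 passed. Gins2 was at 3.46, 4.07 and 3.94 CPM in wild type and at 4.78, 6.99 and 4.55 CPM in knockout. Knockout replicate 2 was the highest, and the groups did not overlap (log2 fold change 0.52, 95% interval 0.07 to 0.96, edgeR adjusted p = 0.108). Gins4 was at 8.73, 10.6 and 9.36 CPM in wild type and at 10.1, 11.7 and 9.98 CPM in knockout (0.15, 95% interval -0.15 to 0.44, adjusted p = 0.485). Both encode subunits of the GINS complex, as do Gins1 and Gins3, whose fold changes were 0.49 and 0.51 at levels of 1.83 ± 0.639 and 1.99 ± 0.0256 CPM in wild type (SD, n = 3). Cdc45, which clamps GINS and the ring together, lay at 0.33 (95% interval -0.03 to 0.68). The intervals of these low genes were wide, and that of Gins1 reached from -0.12 to 1.11. Gins2 overlaps Gse1 on the opposite strand over 67.3% of its exon bases.

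Primase and polymerase alpha, which start every new strand with an RNA and DNA primer, had 0 of 4 members past the test. The large primase subunit gene Prim2 was at 6.68, 5.95 and 7.28 CPM in wild type and at 8.85, 8.63 and 8.15 CPM in knockout. The libraries of each genotype were close together and the groups separate (log2 fold change 0.37, 95% interval 0.05 to 0.68, edgeR adjusted p = 0.104). Pola2, the accessory subunit of polymerase alpha, was at 8.92, 11.9 and 11.7 CPM in wild type and at 9.57, 12.2 and 11.3 CPM in knockout (0.02, 95% interval -0.31 to 0.35, adjusted p = 0.944). The catalytic genes Prim1 and Pola1 lay at 0.33 and 0.24.

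Among the leading and lagging strand polymerases, 1 of 5 members rose. Pold2, the subunit that links the catalytic part of polymerase delta to its other subunits, lies on chromosome 11 from 5872180 to 5878292. It was at 10.4, 11.2 and 9.31 CPM in wild type and at 15.1, 15.04 and 16.3 CPM in knockout, and the groups were far apart compared with the spread within each (log2 fold change 0.58, SE 0.12, edgeR adjusted p = 0.00836). Pold1, the catalytic subunit of the same enzyme, was at 14.8, 15.1 and 15.5 CPM in wild type and at 15.5, 14.7 and 16.3 CPM in knockout. Its groups overlapped (log2 fold change 0.03, 95% interval -0.19 to 0.26, adjusted p = 0.853). The 95% interval of Pold2 ran from 0.32 to 0.84 and did not reach that of Pold1, although the difference between the genes was not tested. Pold3 and the catalytic subunit of polymerase epsilon, Pole, lay at 0.08 each, and its partner Pole2 at 0.32.

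The sliding clamp and its loader had fold changes above 0 for all 6 members, with 0 of 6 past the test. Pcna, the clamp that holds polymerases on DNA, was at 48.1, 45.0 and 43.7 CPM in wild type and at 48.6, 59.8 and 60.2 CPM in knockout. Knockout replicate 1 lay next to the wild type range and the other 2 well above it (log2 fold change 0.30, 95% interval 0.07 to 0.53, edgeR adjusted p = 0.0724). Without knockout replicate 1 the fold change was 0.40 with an adjusted p of 0.0208, but with any other library omitted Pcna did not pass (up to 0.216). Rfc1, the large subunit of the clamp loader, was at 31.2, 33.4 and 30.4 CPM in wild type and at 32.9, 34.0 and 34.4 CPM in knockout (0.09, 95% interval -0.11 to 0.28, adjusted p = 0.525). The small loader subunits Rfc2 to Rfc5 lay at 0.28, 0.21, 0.22 and 0.15, and of these Rfc2, Rfc4 and Rfc5 overlap genes on the opposite strand over 15.1%, 12.7% and 10.7% of their exon bases.

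The trimer RPA, which coats single-stranded DNA, had 0 of 3 members past the test. Rpa2, the subunit phosphorylated under replication stress, was at 9.95, 8.66 and 9.05 CPM in wild type and at 10.3, 12.1 and 12.3 CPM in knockout, without overlap (log2 fold change 0.33, 95% interval 0.04 to 0.61, edgeR adjusted p = 0.109). Rpa1, the main DNA-binding subunit, was at 29.6, 32.9 and 30.6 CPM in wild type and at 28.6, 29.1 and 30.8 CPM in knockout (-0.08, 95% interval -0.28 to 0.12, adjusted p = 0.602). Rpa3 also lay at -0.08. The fold changes of the 3 subunits thus did not share a sign.

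Neither of the 2 genes of Okazaki fragment maturation passed. Lig1, the ligase that seals the fragments, was at 15.6, 17.0 and 17.7 CPM in wild type and at 19.0, 24.1 and 20.6 CPM in knockout. The groups did not overlap (log2 fold change 0.34, 95% interval 0.09 to 0.59, edgeR adjusted p = 0.0653), and without knockout replicate 1 the fold change was 0.42 with an adjusted p of 0.0372. Lig1 did not pass with any other library omitted (adjusted p up to 0.252). Fen1, the flap nuclease that trims the fragments, had only 12, 10 and 10 counts in wild type and 9, 2 and 8 counts in knockout. Its log2 fold change was -0.25 with a 95% interval from -1.43 to 0.92, so that a difference in either direction was not detectable at these counts. Of the exon bases of Fen1, 84.2% overlap Gm10143 or Tmem258 on the opposite strand, and the part of this overlap in the low counts was not tested.

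Of the 4 factors that travel with and protect the fork, 1 rose. Tipin was at 5.42, 6.18 and 5.03 CPM in wild type and at 7.30, 8.32 and 9.35 CPM in knockout, with separate groups (log2 fold change 0.58, SE 0.16, edgeR adjusted p = 0.0309). Omitting replicate 1 or 3 of wild type, or 2 or 3 of knockout, ended the call of Tipin (adjusted p up to 0.112). Timeless, the protein that Tipin binds, lay at -0.16 (95% interval -0.50 to 0.17), and the intervals of this pair did not overlap, although their difference was not tested. Clspn, which encodes the checkpoint mediator claspin, was at 8.87, 11.03 and 11.4 CPM in wild type and at 9.10, 11.6 and 9.51 CPM in knockout (-0.05, adjusted p = 0.851). Wdhd1, which ties polymerase alpha to the helicase, lay at 0.12.

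Behind the fork, 3 of 5 chromatin genes rose. Hells, a chromatin remodeller needed for DNA methylation, lies on chromosome 19 from 38930915 to 38971051. It was at 13.3, 13.6 and 14.1 CPM in wild type and at 17.2, 24.8 and 20.6 CPM in knockout. The wild type libraries were tight and the knockout libraries spread widely above them (log2 fold change 0.61, SE 0.13, edgeR adjusted p = 0.0107). Chaf1b, a subunit of the CAF-1 complex that places new histones, was at 5.88, 6.29 and 5.63 CPM in wild type and at 8.79, 11.1 and 8.39 CPM in knockout (0.67, SE 0.15, adjusted p = 0.0146). The adjusted p of Chaf1b was 0.0680 without knockout replicate 2, the single library whose removal ended the call. Uhrf1, which reads half-methylated DNA and recruits the maintenance methyltransferase, was at 20.9, 23.3 and 20.9 CPM in wild type and at 26.3, 30.1 and 26.2 CPM in knockout (0.34, SE 0.10, adjusted p = 0.0404). The call of Uhrf1 ended when replicate 1 or 3 of wild type, or 2 or 3 of knockout, was omitted (adjusted p up to 0.156).

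The partners of these chromatin genes did not pass. Chaf1a, the large subunit of CAF-1, was at 7.52, 8.13 and 8.71 CPM in wild type and at 7.82, 9.43 and 7.99 CPM in knockout (log2 fold change 0.05, 95% interval -0.26 to 0.36, edgeR adjusted p = 0.831). Its interval met that of Chaf1b, which ran from 0.33 to 1.01, and 52.5% of its exon bases overlap Ubxn6 on the opposite strand. Dnmt1, the maintenance methyltransferase, was at 53.2 ± 3.43 CPM in wild type and 55.5 ± 4.19 CPM in knockout (SD, n = 3), with a log2 fold change of 0.06 (95% interval -0.15 to 0.27). Of the 40 members that did not pass, 27 had a 95% interval wholly within 1.5-fold either way, and that of the other 13 reached further.

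The authors' deposited table was made from the same libraries with DESeq2. For Mcm6 the authors' deposited table gives a log2 fold change of 0.81 and for Pold2 one of 0.60. Mcm7 and Uhrf1, near the threshold here, have adjusted p-values of 0.0617 and 0.0623 in the authors' deposited table.

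Genes that work beside this machinery were read from the same fit. Of 35 further replication proteins, 8 were higher and 0 lower, beside 9.43% and 5.97% of all genes, with a median log2 fold change of 0.14. The largest were the histone chaperone gene Asf1b (0.81, edgeR adjusted p = 0.0137) and Rnaseh2b, a subunit of the nuclease that removes RNA from DNA (0.58, adjusted p = 0.00916). Asf1b did not pass without knockout replicate 2 or 3 (adjusted p up to 0.0564). The fold changes nearest to 0 were those of Pold4 (-0.01) and Mtbp (0.00). Of the 35 genes 8 lay below 0, the lowest being Recql4, a helicase-family protein of origin firing, which was separate and lower in knockout without passing (-0.54, adjusted p = 0.0808). The other genes of this list that rose were Pole3, Chtf8, Ssrp1, Ddb1, Cul4a and Pclaf. Of these 6, only Ssrp1 kept its call whichever library was omitted, and the adjusted p of the others reached 0.0603 (Ddb1) to 0.151 (Pole3). The count of 8 became 5 and 4 when wild type replicates 2 and 3 were omitted, and 4 and 2 when knockout replicates 2 and 3 were. In these fits, in the same order, 6.57%, 5.61%, 5.05% and 3.98% of all genes were higher.

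Of 15 tested genes of nucleotide supply, 4 were higher and 0 lower, beside 9.43% and 5.97% of all genes, with a median of 0.33. Shmt1 and Mthfd1, enzymes of the folate cycle that feeds thymidylate and purine synthesis, rose by 0.87 (edgeR adjusted p = 0.000992) and 0.78 (adjusted p = 0.00147). Rrm1, the large subunit of ribonucleotide reductase, rose by 0.61. The count of 4 became 7 when knockout replicate 1 was omitted, with 9.12% of all genes higher in that fit. The thymidine and thymidylate kinase genes Tk1 and Dtymk lay near 0, at 0.10 and -0.04. The lowest of the 3 genes below 0 was Rrm2b, a small subunit of ribonucleotide reductase (-0.23, adjusted p = 0.329), and Samhd1, which breaks down deoxynucleotides, was separate and lower in knockout without passing (-0.16, adjusted p = 0.270).

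The genes of the regulators themselves formed a further list. Of 13 genes of E2F and pocket proteins, 1 was higher and 0 lower, with a median of 0.13. The count lay near the 9.43% of all genes higher, and the median near the 0.14 of the replication partners. Tfdp1, the DNA-binding partner of E2F proteins, was at 27.4, 29.1 and 28.5 CPM in wild type and at 36.8, 37.3 and 38.1 CPM in knockout (log2 fold change 0.40, edgeR adjusted p = 0.0115), with tight and separate groups. E2f6, a repressor of the family, lay at 0.40 without passing (adjusted p = 0.131). The fold changes nearest to 0 were those of E2f3 (-0.04) and Rb1 (-0.09). Of 25 genes of G2 and mitosis, 14 were higher and 0 lower, beside 9.43% and 5.97% of all genes, with a median of 0.53. The ends of this G2/M list were Ccna2 (1.04, adjusted p = 0.000917) and Ube2c (1.01, adjusted p = 0.00257) on one side and Cenpf (0.20) and Mki67 (0.17, adjusted p = 0.379) on the other. The G2/M count fell to 7 when wild type replicate 3 or knockout replicate 2 was omitted, with 5.61% and 5.05% of all genes higher in those fits. The difference between these lists was not tested.

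**Figure D3:**
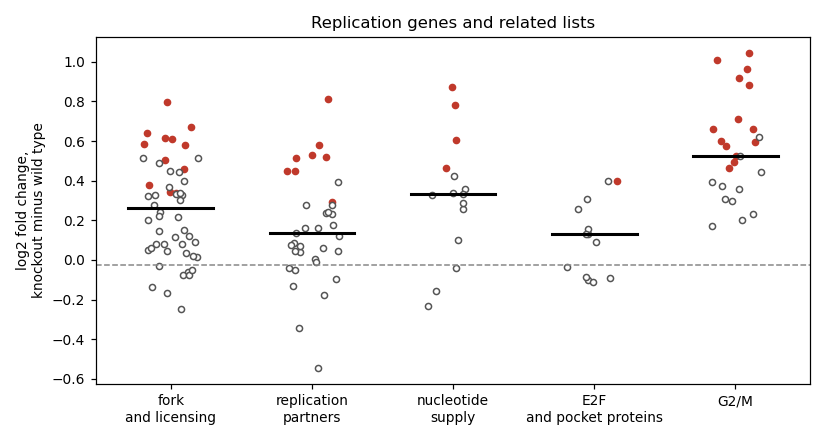
Log2 fold changes (knockout minus wild type, y axis) of single genes in the fork and licensing list and in 4 neighbouring lists, with filled red points for genes that passed the test, a black bar at each list's median and a dashed line at the median of all genes tested (-0.03). The medians are 0.26 for the fork and licensing genes, 0.14 for replication partners, 0.33 for nucleotide supply, 0.13 for E2F and pocket proteins and 0.53 for G2/M genes.

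**Figure D4:**
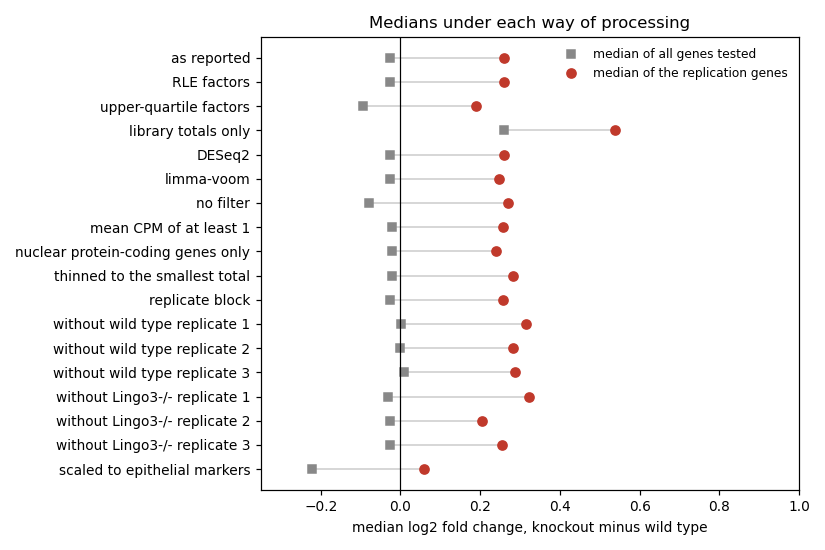
Median log2 fold change (knockout minus wild type, x axis) of the 52 genes and of all genes tested under each processing setting (y axis). Both medians move together between scalings, from 0.54 and 0.26 with library totals to 0.06 and -0.22 with epithelial marker scaling. A change of scaling moves all genes nearly alike, so the gap between the medians (0.23 to 0.35 over all settings) does not test the scaling.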

How the data were processed

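Total RNA of 6 libraries, 3 per genotype, was sequenced. Per the submitters' processing notes, reads were handled with Trimmomatic 0.39, STAR, HTSeq and DESeq2 on GRCm38. Other versions, the annotation release and the strand setting were not given in the sources used here. Raw counts per gene were deposited, with summary lines for reads not assigned to a gene (53.6 to 60.1% of reads), which were left out of library sizes. The deposited comparison table holds, per the file headers, the authors' log2 fold changes, p-values, a test statistic (score) and normalized counts (signal); its log2 fold changes and adjusted p-values were used only as descriptions.

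Counts were tested with edgeR 4.0.16 in R 4.3.3 (filterByExpr with a minimum count of 10 and a minimum total of 15, TMM factors, robust quasi-likelihood test, genotype as the only term), with Benjamini-Hochberg adjustment over 16856 genes. CPM use TMM-scaled library sizes. Intervals are 95% intervals of the log2 fold change. The fits were also run on simulated data, with changes in random directions and no further composition difference between genotypes. That run does not test the choice of scaling. Libraries carry no molecular identifiers. Levels per kb use GENCODE M21 principal transcripts, and motifs were searched in RefSeq promoters. DESeq2 1.42.0, limma 3.58.1, other scalings and filters, thinning, a replicate block and the omission of single libraries were alternatives. The members and lists were chosen with earlier results of these data known. All 52 members are named by role; library values are given per role for the members at either end of the test, or of the fold change where all or none passed, and in addition for each member that passed. In the other lists the 2 largest and the 2 smallest fold changes are named, and further genes were named after their values were seen. Chromosome 18 was left out of the promoters shown. A gene of the nucleotide supply list is counted but not reported here by name.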

Additional observations from a re-analysis of the deposited data

How the results depend on the processing

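Of the 52 genes, 0 were lower in knockout under each setting tried. The count higher, 12 as reported, was 34 with library totals alone, 7 with counts thinned to the smallest library (6 of them among the 12), and 5 to 15 when single libraries were left out. Scaling to epithelial markers, added after the data were seen, left 1. The members' median of 0.26 became 0.54 with library totals and 0.060 with epithelial scaling. With library totals, epithelial scaling and single libraries left out, in this order, the counts higher were 21, 0 and 2 to 8 for replication partners (5 with upper-quartile factors), 12, 2 and 3 to 7 for nucleotide supply, 7, 0 and 1 for E2F and pocket proteins, and 22, 5 and 7 to 14 for G2/M genes. Of all genes tested, 32.1%, 1.94% and 3.98 to 10.04% were higher in these fits, in the same order. The share was 6.7% with upper-quartile factors and 8.93% with thinned counts. The causes were not tested. Deviations of libraries with the same replicate number correlated at -0.01, -0.12 and -0.10, and those with different numbers at -0.12 to 0.22. Each deviation is taken from the mean of only 3 libraries, so these values cannot settle whether the numbers mark pairs. With the replicate block 8 members were higher, 7 of them among the 12, beside 7.08% of all genes. Knockout was the shallower group, and the part of library depth in these counts was not tested. Fen1 had too few counts in every library to be measured usefully, and the part of its overlap with genes on the opposite strand was not tested.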
